A study of Aspergillus oryzae with 8 samples.

Results

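Mycelium of the koji mould Aspergillus oryzae, strain RIB40, was compared between agar and liquid culture while both cultures were under dithiothreitol (DTT). The comparison used the 2 libraries labelled solid culture with ER (endoplasmic reticulum) stress and the 2 labelled liquid culture with ER stress, 4 of the 8 libraries of the series, and covered all genes. Of 11880 genes listed in the files, 9438 had enough reads to be tested. In the agar group, mycelium grown on cellophane over agar was moved with its cellophane onto filter paper 2 cm thick that held 20 mL of medium with 20 mmol/L DTT. In the liquid group, DTT was added to the shaken culture to the same 20 mmol/L. All groups were the same strain in the same nitrate medium with 2.0% glucose at pH 5.5. The untreated libraries, 2 from agar and 2 from liquid culture, came from mycelium grown for 40 h at 30 °C and give the culture difference without DTT. The labels of the treated libraries state neither the time under DTT nor the growth time and temperature, and they describe the move to filter paper for the agar culture under DTT and not for its control. That move and the culture therefore cannot be told apart here. Values are given as replicate 1 and then replicate 2. In each group replicate 1 had inserts of 500 bp and the molecule label polyA RNA, and replicate 2 had inserts of 200 bp and the label total RNA.

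DTT reduces disulfide bonds, so proteins that need them to fold accumulate unfolded in the ER. Fungi answer with the unfolded protein response, in which the transcription factor HacA raises chaperones such as the Hsp70 protein BipA and the disulfide isomerase PdiA. On a surface a filamentous fungus forms aerial hyphae and spores and meets nutrients by diffusion, whereas shaken mycelium stays submerged. Aspergilli express many genes of secondary metabolism, which often lie side by side on a chromosome, in only some of these growth forms.

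The 4 libraries with DTT held between 6067143 and 8912897 reads. Genes of rRNA took 37.6% and 17.1% of the reads on agar and 17.7% and 20.6% in liquid. Levels are given as CPM, the reads of a gene relative to all reads of its library after TMM scaling. The log2 CPM of the 2 libraries of a condition correlated across genes at 0.925 on agar and 0.898 in liquid, against 0.800 to 0.858 between the cultures. The 2 replicates differed by a median of 0.511 on the log2 scale on agar and 0.745 in liquid. When every library was reduced in expectation to 4397506 reads outside rRNA, agar libraries with DTT held 10619.4 and 10683.2 genes with a read and liquid libraries 10060.6 and 10052. As a check of the labels, bipA stood at 8445 and 9309 CPM on agar and 5632 and 8550 CPM in liquid with DTT, against 311.9 to 801.4 CPM in the 4 libraries without it. The labels leave unsaid whether replicates were grown as separate cultures. The p-values therefore rest on a spread between libraries that may be purely technical.

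Under DTT the larger number of called differences was toward agar. With edgeR's quasi-likelihood test and Benjamini-Hochberg adjustment over all 9438 genes, 278 genes (2.95%) had an adjusted p under 0.05. Of these, 222 (2.35% of the genes tested) were higher on agar and 56 (0.593%) were lower. With insert size as a block, 992 genes (10.5%) were called, 648 (6.87%) higher and 344 (3.64%) lower, and all 278 were among them. The genes higher on agar differed by at least 1.84 on the log2 scale and those lower by at least 1.74. The libraries of the cultures did not overlap at any of the 278 genes, but this held for 51.8% of all genes tested. In RNA of whole mycelium, fewer hyphae of a kind and less RNA per hypha cannot be told apart.

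The genes on the 2 sides differed in level. Of the 222 genes higher on agar, 48 had no read in either liquid library with DTT, and 20 of those had none in the liquid libraries without DTT either. Their median level on agar was 18.0 CPM, and 23 of them reached 100 CPM. Of the 56 genes lower on agar, 1 had no read in either agar library with DTT. Their median level in liquid was 94.4 CPM, and 27 reached 100 CPM. Only 22 of the genes higher and 5 of the genes lower carry a symbol in the reference table.

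All 8 libraries share 1 estimate of the spread, and each fit without a library left its condition with 1. The count changed when single libraries, controls included, were left out, and why was not tested. It was 75 without agar DTT replicate 1, 59 without agar DTT replicate 2 and 70 without liquid DTT replicate 1. Without liquid DTT replicate 2 it was 320, and the split turned to 104 genes higher and 216 lower. It was 84 and 78 without either replicate of the agar control, and 220 and 209 without either replicate of the liquid control. Of the 222 genes higher on agar, 37 were called in all 8 of these fits, and 34 of the 37 were also called higher on agar without DTT. None of the 56 genes lower on agar was called in all 8. Of all 222 genes higher on agar, 99 (44.6%) were called higher without DTT too, against 2.23% of all genes tested. Genes kept in all 8 fits were chosen partly by fits without a control library, so their share is a description. The split also moved with the fit, from 222 higher and 56 lower to 647 and 455 with DESeq2 and to 416 and 194 without a filter on low counts.

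The longest row of neighbouring genes higher on agar under DTT was that around gliP. Genes with gli symbols are named after the gliotoxin genes of Aspergillus fumigatus, which make a sulfur-bridged toxin in that species. The roles given below are those known from Aspergillus fumigatus. Neither these roles nor the product of the row in Aspergillus oryzae was tested here. In this row of 24 consecutive genes, from AO090001000024 to AO090001000048, 23 were called higher on agar, which is 10.4% of all genes called higher. The ends of the row were set by these calls. The summed level of the 23 was 1068 and 881.8 CPM on agar and 18.97 and 16.4 CPM in liquid with DTT. Without DTT the same genes summed to 2365 and 2451 CPM on agar and 103.9 and 58.5 CPM in liquid. Both agar libraries thus lay above both liquid libraries in each condition, which with DTT follows from summing only called genes.

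The gli genes with DTT were at or near 0 in liquid. gliP, the nonribosomal peptide synthetase that joins the first amino acids, stood at 66.0 and 69.7 CPM on agar, and at 0 and 0.317 CPM in liquid, where its 2 libraries held 3 reads. Its ratio was 317 with an exact 95% interval of 108 to 1538, which covers counting error only (adjusted p = 0.00277, edgeR). gliJ, a dipeptidase, stood at 128.0 and 55.4 CPM on agar and had no read in liquid, so it was at least 376-fold higher, taking a floor of 3 reads over both liquid libraries. gliI, the lyase that cuts carbon-sulfur bonds, stood at 45.4 and 51.2 CPM on agar and at 0 and 0.211 CPM in liquid, a ratio of 341 (95% interval 94.2 to 2822). In each of these 3 genes both agar libraries lay far above both liquid ones.

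Other gli genes kept some reads in liquid. gliC, a cytochrome P450, stood at 34.9 and 33.1 CPM on agar and 0.452 and 0.317 CPM in liquid, a log2 fold change of 6.47 ± 0.58 (SE, edgeR, adjusted p = 0.00268). gliG, a glutathione S-transferase that adds the sulfur donor, stood at 52.1 and 27.6 CPM against 0.903 and 0.634 CPM, a log2 fold change of 5.71 ± 0.58. gliM, a methyltransferase, had the most reads in liquid of these, with 73.5 and 54.9 CPM on agar and 5.42 and 6.13 CPM in liquid, a log2 fold change of 3.47 ± 0.44. For gliK, a gamma-glutamyl cyclotransferase, the replicates differed more, at 65.1 and 26.5 CPM against 0.903 and 0.211 CPM, and its log2 fold change was 6.54 ± 1.19 (adjusted p = 0.0294, edgeR).

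The remaining genes of the row carry no symbol and are given by position only. AO090001000024, the first of the row, stood at 196.4 and 196.3 CPM on agar and 0.226 and 0.528 CPM in liquid, a log2 fold change of 8.84 ± 0.72. AO090001000032, AO090001000045 and AO090001000046 had no read in any of the 4 liquid libraries and were at least 258-fold, 173-fold and 162-fold higher on agar with DTT. At the far end AO090001000048 stood at 4.24 and 3.51 CPM on agar with no read in liquid. Across the 23 genes the adjusted p ranged from 0.00262 to 0.0344 with edgeR, and 8 of them had no read in liquid with DTT. The median log2 fold change was 7.63 as fitted and 6.33 with those at 0 set to the floor of 3 reads. The neighbour before the row, AO090001000023, stood at 9.96 and 9.53 CPM against 3.61 and 6.13 CPM and was not called.

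The exception in the middle of the row was AO090001000037. It stood at 750.4 and 389 CPM on agar and 216.1 and 201.8 CPM in liquid with DTT, a log2 fold change of 1.45 ± 0.51 that was not called (adjusted p = 0.136, edgeR). Without DTT it was called, at 476.9 and 345 CPM against 51.2 and 43.3 CPM, a log2 fold change of 3.12. In liquid its 2 libraries with DTT lay above its 2 libraries without, whereas 20 of the other 23 genes were called higher on agar in both conditions. The 3 that were not called without DTT were gliK, AO090001000029 and AO090001000031, with log2 fold changes there of 4.06, 1.63 and 0.93. On agar, the mean level of the 23 genes with DTT was a median of 0.400 times that without, ranging from 0.250 to 0.557 times. That ratio is given as a description and the effect of DTT was not tested here.

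Of the 23 genes, 15 were called in all 8 fits that left out 1 library, among them gliP, gliI, gliJ, gliC, gliG and gliM. The number called in the row was 15 without either agar DTT library, 17 without liquid DTT replicate 1, 18 without liquid DTT replicate 2, and 17 without either agar control. gliK was not called in 6 of the 8 fits, with an adjusted p of at most 0.0936.

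**Figure D1:**
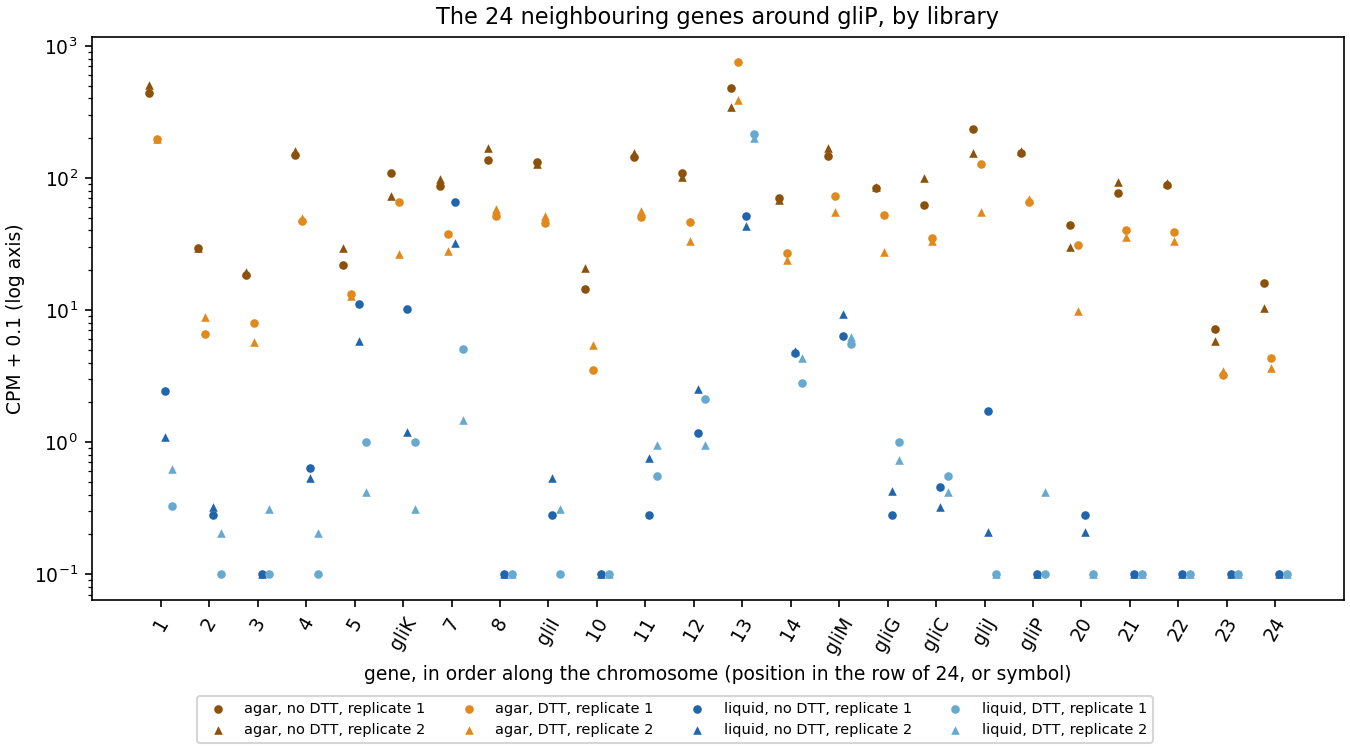
CPM plus 0.1 on a log axis of the 24 neighbouring genes around gliP, in their order along the chromosome, in each of the 8 libraries (colour for culture and DTT, circles for replicate 1 and triangles for replicate 2). Agar libraries lie above liquid libraries at 23 genes with DTT by wide margins, and the gap is smallest at position 13, AO090001000037.

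Other genes higher on agar also lay side by side. Of the 222, 73 (32.9%) lay next to another gene called higher on agar, against 3.31% of all genes tested that had such a neighbour. Without the gli row it was 50 of 199 (25.1%), against 3.06%. Of the 56 genes lower on agar none lay next to another gene called lower, against 1.03% of all genes tested. At that share few or none of 56 genes would have such a neighbour, so no difference is shown. Counting stretches with at least 3 called genes and at most 1 gene between them gave 9 rows. All 9 were higher on agar, where more genes were called, and they held 23, 9, 5, 3, 3, 3, 3, 3 and 3 called genes.

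In the row from AO090026000586 to AO090026000575, 9 of 11 genes were called, and all 9 were called higher on agar without DTT too. Of these 9 calls, 2 stood in all 8 fits that left out 1 library. Their summed level with DTT was 223.8 and 162.2 CPM on agar and 4.97 and 0.951 CPM in liquid. Within it AO090026000579 stood at 31.3 and 25.8 CPM on agar and had no read in any liquid library, at least 129-fold higher with DTT. In the row from AO090001000616 to AO090001000622, 5 of 7 genes were called, with summed levels of 310.7 and 148.8 CPM against 9.94 and 9.08 CPM, and 1 of these 5 calls stood in all 8 fits. Of the 3 calls in each shorter row, all 3 stood in the row from AO090023000070 and at most 1 in any other. In 3 other rows, starting at AO090038000213, AO090011000391 and AO090010000693, the called genes had no read in liquid with DTT, and their sums on agar lay between 6.37 and 53.1 CPM. The row from AO090701000773 to AO090701000771 differed from the others in that none of its 3 genes was called without DTT. All 3 still had a positive log2 fold change without DTT, against 51.4% of all genes. Their sums there were 53.8 and 45.8 CPM on agar and 13.9 and 10.3 CPM in liquid. With DTT the sums were 42.6 and 55.7 CPM against 3.39 and 2.32 CPM. In this row AO090701000773 stood at 19.1 and 15.6 CPM on agar with DTT and had no read in liquid, at least 77.9-fold higher. Its 0 reads in liquid DTT replicate 1 are listed with 6.76% of the gene covered, so that count is uncertain. Without DTT it held 0.516 and 0 CPM on agar and 0 and 0.219 CPM in liquid. Whether its culture difference changed with DTT did not pass the test (adjusted p = 0.225 with insert size as a block, edgeR). The call of AO090701000773 was lost in 4 of the 8 fits that left out 1 library, with adjusted p up to 0.0939.

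**Figure D2:**
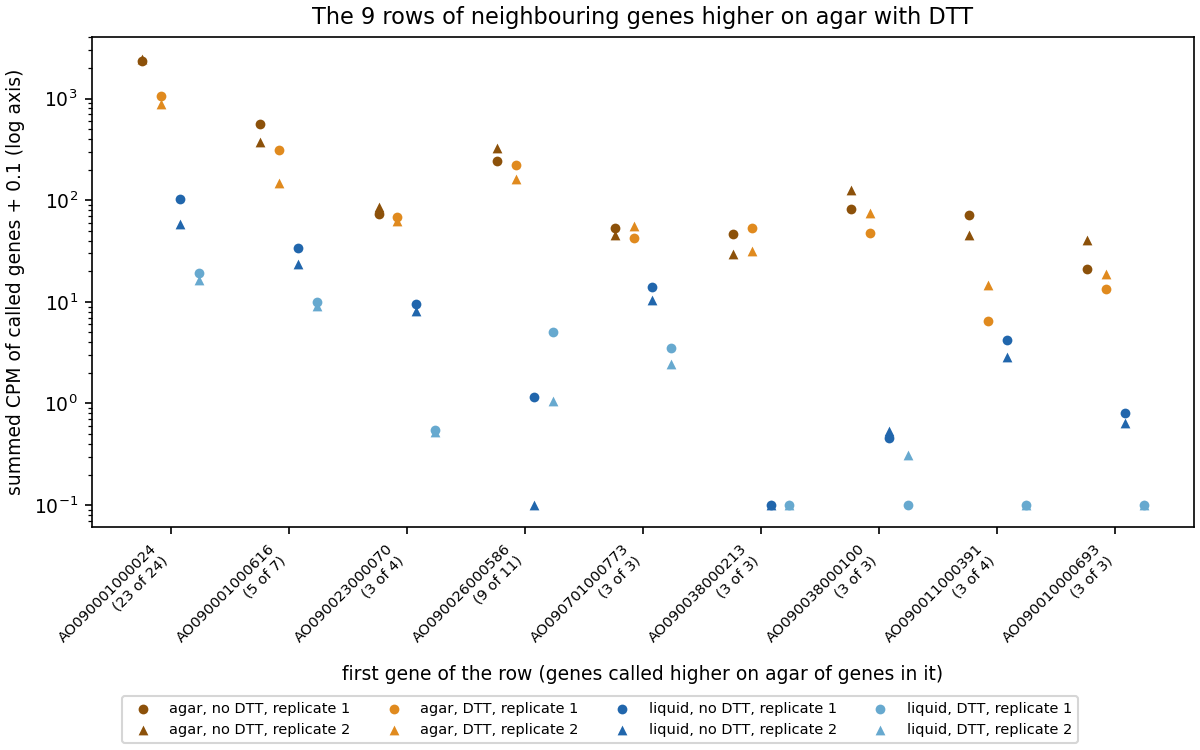
Summed CPM of the called genes, plus 0.1 on a log axis, in the 9 rows of neighbouring genes higher on agar with DTT, in each library. Rows are labelled by their first gene and by the number of called genes. Both agar libraries with DTT lie above both liquid libraries with DTT in every row, which follows from summing only called genes.

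The culture differences that stood under DTT were mostly those toward agar. Without DTT, 367 genes (3.89%) were called between the cultures in the same fit, 210 (2.23%) higher and 157 (1.66%) lower on agar. The libraries did not overlap at 50.2% of all genes there, and 51.4% had a positive log2 fold change. Of the 210 higher, 99 (47.1%) were called higher with DTT too, against 2.35% of all genes tested. Of the 157 lower, 11 (7.01%) were called lower with DTT too, against 0.593% of all genes. Both sets of calls use the same estimate of each gene's spread. They are therefore not independent, and these shares are a description. With insert size as a block, 771 genes (8.17%) were called without DTT, and 187 of the 385 higher (48.6%) and 98 of the 386 lower (25.4%) were called with DTT too. Those 385 and 386 were 4.08% and 4.09% of the genes tested. With DTT in that fit, 6.87% of all genes tested were called higher and 3.64% lower. In all, 110 genes (1.17% of those tested) were called in both conditions in the same direction, 99 (1.05%) toward agar and 11 (0.117%) toward liquid.

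Loss of a call was in most cases not a change of direction. Of the 110 genes higher on agar that were called only without DTT, 93 still had a positive log2 fold change with DTT, against 50.7% of all genes, and at 77 of them both agar libraries lay above both liquid libraries, against 28.8% of all genes. Of the 145 genes lower on agar called only without DTT, 111 still had a negative one, and at 84 both agar libraries lay below both liquid ones, against 23.0% of all genes. The median log2 fold change of the 210 genes was 5.42 without and 3.87 with DTT as fitted, and 4.66 and 3.31 with groups at 0 set to the floor. For the 157 genes it was -3.46 without and -1.11 with DTT. Since these genes were chosen by the value without DTT, the smaller value with DTT is a description. Across all 9438 genes, which share the 2 insert sizes and are not independent replicates, the log2 fold changes with and without DTT correlated at 0.54 (Pearson) and 0.44 (Spearman).

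The change of the culture difference between the conditions was tested directly. No gene passed in edgeR's fit without a block, although 1003 genes (10.6%) had an unadjusted p under 0.05. With insert size as a block 23 genes (0.244%) passed, and DESeq2 called 217. A gene called only with or only without DTT is therefore, for all but these few, not shown to differ between the conditions. The number called in both conditions in the same direction fell from 110 to between 34 and 70 when any single library was left out, with 34 without agar control replicate 2 and 38 without agar DTT replicate 2.

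**Figure D3:**
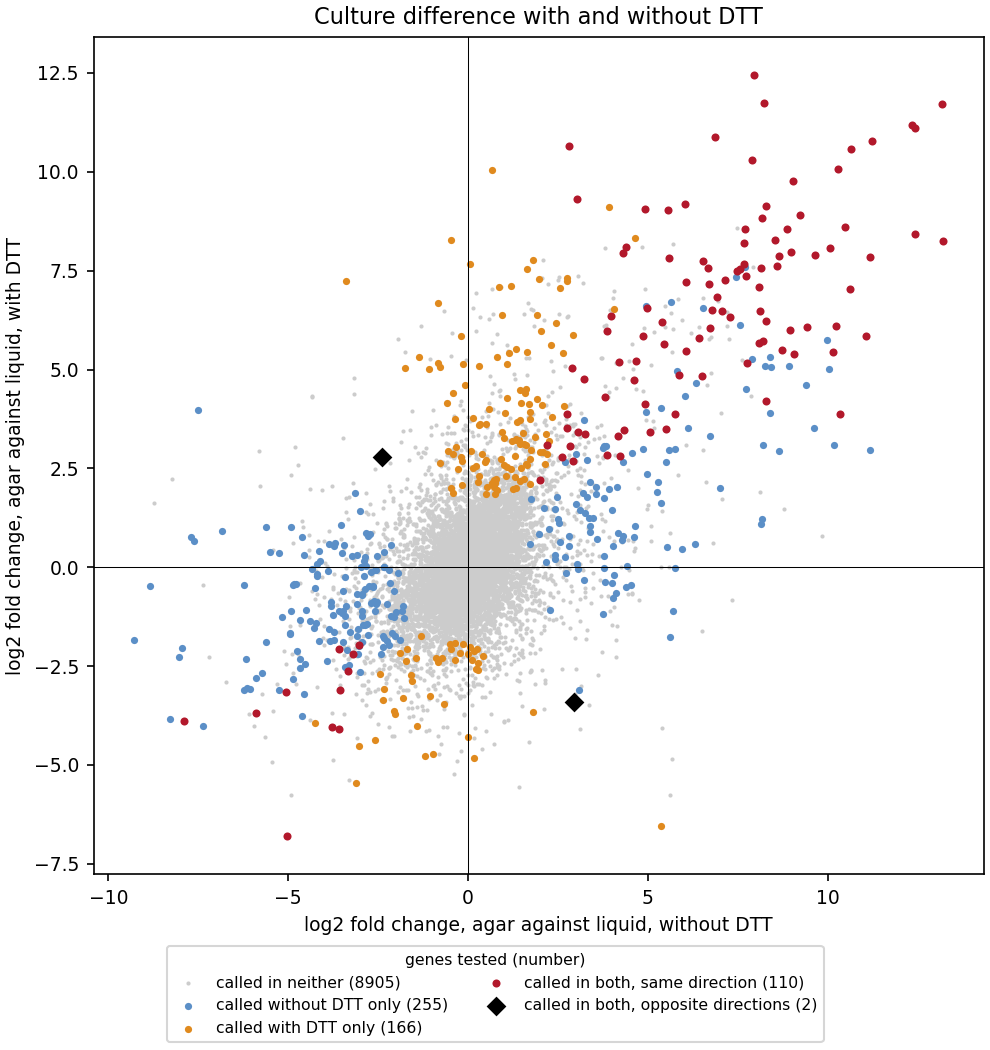
Log2 fold change of agar against liquid culture for each of the 9438 genes tested, without DTT on the horizontal axis and with DTT on the vertical axis, coloured by the calls. The 110 genes called in both in the same direction lie mostly at the upper right, and the black diamonds are the 2 genes called in opposite directions.

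In the fit without a block 2 genes were called in both conditions with opposite signs, and with insert size as a block 9 were. sit1 (AO090005000471), named after a siderophore iron transporter, stood at 38.4 and 30.4 CPM on agar and 354 and 370 CPM in liquid with DTT. Without DTT it was the other way round, with 499 and 340 CPM on agar and 42.6 and 65.9 CPM in liquid. Its log2 fold change was -3.40 ± 0.50 with DTT (adjusted p = 0.0163) and 2.95 ± 0.49 without (adjusted p = 0.0165, both edgeR), and the libraries did not overlap in either condition. The change of the difference had an adjusted p of 0.0799, and 0.0269 with insert size as a block. The call with DTT was lost without agar DTT replicate 1 (adjusted p = 0.084) and replicate 2 (adjusted p = 0.128). Another siderophore transporter, mirB, and the siderophore esterase sidJ, both chosen after their values were seen, were called higher on agar without DTT and not called with it. Without DTT mirB held 383 reads on agar and 1 in liquid, a ratio of 369 (exact 95% interval 65.8 to 14594), and with DTT it stood at 0.490 and 2.16 CPM on agar and 1.13 and 0.211 CPM in liquid. sidJ had a log2 fold change of 4.13 without DTT, and with DTT it stood at 4.08 and 1.17 CPM against 1.81 and 5.91 CPM, so the cultures overlapped for both.

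The second such gene was AO090020000542. It stood at 6.20 and 5.48 CPM on agar and 1.13 and 0.634 CPM in liquid with DTT, a log2 fold change of 2.78 ± 0.61 (adjusted p = 0.0486, edgeR). Without DTT it stood at 11.7 and 14.3 CPM on agar and 95.1 and 40.9 CPM in liquid, a log2 fold change of -2.38. Its call with DTT was lost in 7 of the 8 fits that left out 1 library, with adjusted p up to 0.165.

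Of 27 genes of the fungal cell wall, 2 were called higher on agar and none lower in the fit without a block, against 2.35% and 0.593% of all genes. With insert size as a block 2 were called higher and 2 lower, against 6.87% and 3.64%. ags2, an alpha-1,3-glucan synthase, stood at 79.0 and 85.4 CPM on agar and 1.13 and 4.33 CPM in liquid with DTT, a log2 fold change of 4.83 ± 0.66 (adjusted p = 0.0106, edgeR). It was called in all 8 fits that left out 1 library and was higher on agar without DTT as well, by 6.51. chi3, a chitinase, stood at 2.45 and 3.33 CPM on agar and had no read in any liquid library, so it was at least 14.0-fold higher with DTT. The chi3 call was lost in 6 of the 8 fits. Of the 27 log2 fold changes, 7 were positive, against 50.7% of all genes. Their median was -0.56, against 0.018 over all genes, and ags3, of the same enzyme family as ags2, stood at 151 and 94.9 CPM on agar and 121.1 and 551 CPM in liquid.

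Of 15 spore formation genes, brlA alone was called, against 2.95% of all genes. brlA, the transcription factor that starts conidiophore development, stood at 11.4 and 18.7 CPM on agar and 2.03 and 2.11 CPM in liquid with DTT, a log2 fold change of 2.85 ± 0.63 (adjusted p = 0.0486, edgeR). The call was lost in 6 of the 8 fits that left out 1 library, with adjusted p up to 0.243 without agar DTT replicate 2. wetA, a regulator of spore maturation, stood at 33.96 and 16.3 CPM on agar and 205.8 and 38.02 CPM in liquid (adjusted p = 0.136, and 0.0422 with insert size as a block). ayg1, a gene of spore pigment synthesis, stood at 1.80 and 4.59 CPM on agar and 0.452 and 0.106 CPM in liquid and was not called. The median over the 15 genes was -0.54, and 6 were positive.

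Several single enzymes of carbon and nitrogen use were higher on agar with DTT. gatA, the transaminase that breaks down gamma-aminobutyric acid, stood at 123.8 and 64.8 CPM on agar and 2.48 and 1.69 CPM in liquid, a log2 fold change of 5.52 ± 0.66 (adjusted p = 0.00694, edgeR). It was called in all 8 fits that left out 1 library. Without DTT its values were 73.3 and 111.1 CPM on agar and 22.1 and 51.0 CPM in liquid, and it was not called there. Of 5 nitrogen use genes gatA alone was called with DTT, against 2.95% of all genes. Of the 5, 3 had a positive log2 fold change, against 50.7% of all genes, with a median of 0.52. agdC, an alpha-glucosidase, stood at 46.9 and 70.5 CPM against 4.07 and 6.76 CPM, a log2 fold change of 3.42 ± 0.51 (adjusted p = 0.0163), and was also called without DTT. treA, a trehalase, stood at 8.16 and 11.1 CPM against 1.13 and 1.37 CPM, a log2 fold change of 2.92 ± 0.60 (adjusted p = 0.0387). Its levels without DTT were 207 and 249 CPM on agar and 28.7 and 78.3 CPM in liquid, so treA was low in both cultures with DTT and lower in liquid.

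Single genes of amino acid and nucleotide synthesis and of cyanate breakdown were also called higher. ilv3, the dihydroxyacid dehydratase of branched-chain amino acid synthesis, stood at 27.9 and 32.7 CPM on agar and 4.29 and 1.27 CPM in liquid with DTT, a log2 fold change of 3.52 ± 0.63 (adjusted p = 0.0281, edgeR). It was the only one called of 14 amino acid synthesis genes in the fit without a block, against 2.95% of all genes. Of the 14, 8 were positive with a median of 0.54. With insert size as a block 2 were called higher and 0 lower, against 6.87% and 3.64% of all genes. gua1, the GMP synthase, stood at 264.7 and 250 CPM against 34.1 and 36.5 CPM, a log2 fold change of 2.86 ± 0.58 (adjusted p = 0.0377). Without DTT gua1 overlapped between the cultures, with 294.6 and 566.3 CPM on agar and 444.9 and 217 CPM in liquid. cyn1, a cyanase that breaks down cyanate, stood at 37.4 and 13.5 CPM against 2.03 and 1.69 CPM and likewise overlapped without DTT. Left-out libraries ended the calls of agdC in 2, ilv3 in 5, treA and gua1 in 6 and cyn1 in 7 of the 8 fits, with adjusted p of at most 0.164.

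Of 5 cytosolic ribosomal protein genes and 23 ribosome assembly genes, 1 each was called, higher on agar, against 2.35% of all genes. The ribosomal protein gene was rps0, at 246.4 and 277.7 CPM on agar and 33.2 and 8.34 CPM in liquid, a log2 fold change of 3.67 ± 0.76 (adjusted p = 0.0399, edgeR). All 5 had a positive log2 fold change, against 50.7% of all genes, with a median of 2.19, and rps1, rpL3 and rpl17 were not called, with log2 fold changes of 1.79, 2.23 and 2.19 (rpl17 was called with insert size as a block, adjusted p = 0.0475). Of the 23 ribosome assembly genes, 22 were positive with a median of 1.15. The one called was nop58, a core protein of the small nucleolar particles that guide rRNA methylation. nop58 stood at 177.8 and 156.5 CPM on agar and 33.9 and 21.5 CPM in liquid, a log2 fold change of 2.59 ± 0.51 (adjusted p = 0.0349). With DTT and insert size as a block, 2 of the 5 and 4 of the 23 were called higher and 0 lower. Of all genes, 6.87% were called higher and 3.64% lower in that fit. Without DTT the medians of these lists were 1.34 and 1.30, with no member called in the fit without a block. The calls of rps0 and nop58 were lost in 7 and 6 of the 8 fits that left out 1 library, with adjusted p of at most 0.158. The share of reads on rRNA was also higher in agar DTT replicate 1 than in the other 3 libraries, and its part in these values was not tested beyond leaving out the rRNA genes, which gave 254 calls.

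Further genes with symbols higher on agar were rmt2, an arginine methyltransferase of ribosomal protein in Saccharomyces cerevisiae (log2 fold change 3.18), rtt106, a histone chaperone in the same yeast (2.14), ppmA (2.30) and gta1, with no read in liquid. All were lost in at least 5 of the 8 fits that left out 1 library, and rtt106 and ppmA were lost in all 8. Of genes without a symbol, AO090010000746 had the highest mean level on agar among the genes called, with 1838 and 643.3 CPM on agar and 24.8 and 32.7 CPM in liquid with DTT, a log2 fold change of 5.43 ± 0.86 (adjusted p = 0.0204, edgeR). Without DTT its levels were 1840 and 1161 CPM on agar and 968.4 and 402.3 CPM in liquid, so the low values were those of liquid culture with DTT. Its call was lost in 4 of the 8 fits that left out 1 library, with adjusted p up to 0.0897. AO090012000143 stood at 171.4 and 330 CPM against 0.678 and 0.951 CPM and was called in all 8 of those fits, although its 9 reads in liquid DTT replicate 2 are listed with 52.1% of the gene covered, so its count there is uncertain. AO090701000831 rested on agar DTT replicate 2, with 83.4 and 761.3 CPM on agar against 9.03 and 10.2 CPM in liquid, and its log2 fold change fell from 5.45 to 3.12 without that library. The 0 reads of AO090701000867 in liquid DTT replicate 2 are listed with 13.2% of the gene covered, so that count is uncertain. AO090701000867, AO090023000072 and AO090011000225 had no read in liquid with DTT and were at least 137-fold, 118-fold and 208-fold higher on agar. The first pair was called in all 8 of those fits and AO090011000225 in 3.

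The genes lower on agar were led by fmpC, whose name comes from the fumipyrrole genes of Aspergillus fumigatus. It stood at 0.163 and 0.180 CPM on agar, 3 reads in all, and at 16.3 and 18.9 CPM in liquid with DTT, a liquid to agar ratio of 104 with an exact 95% interval of 35.1 to 507 (adjusted p = 0.00768, edgeR). Without DTT it held no read in liquid and 0.688 and 0.632 CPM on agar. The fmpC call was lost without agar DTT replicate 1 (adjusted p = 0.053) and replicate 2 (adjusted p = 0.076). fmpA, named after the same set, stood at 8.33 and 7.19 CPM on agar and 1.13 and 0.951 CPM in liquid, higher on agar in both libraries, and was not called (adjusted p = 0.0587, and 0.0308 with insert size as a block).

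The other genes with a symbol were lower on agar with DTT and not called without it, apart from sit1 above. ish1, named after a stress-responsive nuclear envelope protein of Schizosaccharomyces pombe, stood at 8.33 and 17.4 CPM on agar and 171.6 and 84.7 CPM in liquid, a log2 fold change of -3.31 ± 0.59 (adjusted p = 0.0281, edgeR). nar1, an assembly factor for cytosolic iron-sulfur proteins in Saccharomyces cerevisiae, stood at 34.4 and 54.5 CPM against 244.6 and 157.6 CPM, a log2 fold change of -2.17 ± 0.44 (adjusted p = 0.0382). kat1 stood at 21.2 and 37.0 CPM against 152 and 115.1 CPM, a log2 fold change of -2.19 ± 0.44 (adjusted p = 0.0371). For nar1 and kat1 the 4 libraries without DTT lay between 21.0 and 38.6 CPM, close to the agar libraries with DTT. Their calls were lost in 5 (ish1) and 7 (nar1, kat1) of the 8 fits that left out 1 library, with adjusted p up to 0.19.

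Genes without a symbol made up most of the lower side, as they did of all genes tested, where 695 of 9438 carry a symbol. AO090003000768 stood at 53.1 and 27.7 CPM on agar and 842.4 and 522.1 CPM in liquid, a log2 fold change of -4.08 ± 0.63 (adjusted p = 0.0177, edgeR), and AO090003001297 at 14.7 and 15.9 CPM against 336.3 and 164.6 CPM, a log2 fold change of -4.03 ± 0.51 (adjusted p = 0.00778). Both were called lower without DTT too, and both were lost only without 1 of the agar DTT libraries, with adjusted p between 0.0588 and 0.138. AO090003001297 lies next to zrfA in the reference table's order. AO090012000494 and AO090011000309 had high levels in liquid with DTT, at 902.5 and 747 CPM and at 639.8 and 332.2 CPM, against 152.2 and 198 CPM and 85.1 and 107.6 CPM on agar, and neither was called without DTT. Both of these calls were lost in 7 of the 8 fits that left out 1 library. AO090005001626 rested on 1 library, with 236.5 and 17.3 CPM in liquid, and its log2 fold change went from -4.83 to -1.96 without liquid DTT replicate 1.

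AO090120000378 stood at 134.0 and 87.9 CPM on agar and 891.4 and 466.9 CPM in liquid with DTT, a log2 fold change of -2.61 ± 0.55 (adjusted p = 0.0429, edgeR), and was called lower without DTT too. AO090026000164 stood at 58.1 and 95.3 CPM against 495.1 and 627.5 CPM, a log2 fold change of -2.87 ± 0.47 (adjusted p = 0.022). AO090003000350 and AO090113000088 were lower in level, with 81.3 and 58.5 CPM and with 23.7 and 27.5 CPM in liquid, against 1.96 and 6.47 CPM and 0.490 and 0.629 CPM on agar. None of the last 3 was called without DTT. Left-out libraries ended these calls in 7, 4, 4 and 6 of the 8 fits, with adjusted p of at most 0.266.

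Of 4 zinc transporter genes none was called with DTT in the fit without a block, and 3 were called lower on agar with insert size as a block. zrfA stood at 376.5 and 154.1 CPM on agar and 1873 and 1510 CPM in liquid, a log2 fold change of -2.67 ± 0.73 (adjusted p = 0.0782, and 0.0255 with insert size as a block, edgeR). zrfB stood at 228.9 and 132.8 CPM against 606.6 and 600.3 CPM (adjusted p = 0.0957 and 0.039), and zrfC at 75.1 and 36.5 CPM against 558.3 and 941.9 CPM (adjusted p = 0.0527 and 0.0222). In each of these 3 both agar libraries lay below both liquid ones, which was so for 23.0% of all genes. The one not called in either fit, zrfD, stood at 60.1 and 44.1 CPM on agar and 159.9 and 54.1 CPM in liquid, a log2 fold change of -1.04, and the cultures overlapped. Without DTT zrfA and zrfB were called lower on agar, by -5.73 and -3.08. Of the 14 iron and zinc uptake genes tested none was called with DTT, and 4 were called lower with the block, against 3.64% of all genes.

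**Figure D4:**
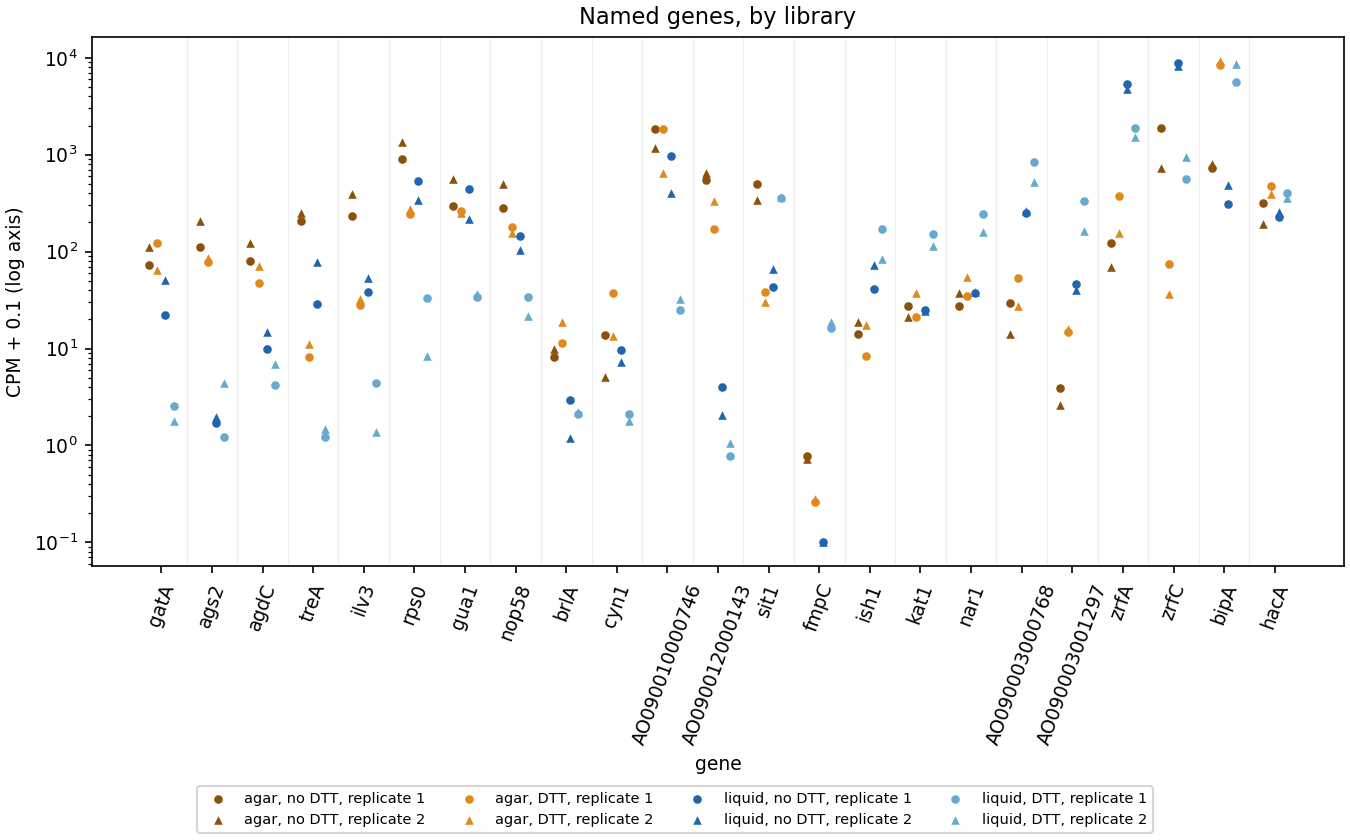
CPM plus 0.1 on a log axis of 23 named genes in each of the 8 libraries, coloured by culture and DTT, with circles for replicate 1 and triangles for replicate 2. For genes from gatA to AO090012000143 the agar DTT libraries lie above the liquid DTT libraries, from sit1 to zrfC below them, and for bipA and hacA the cultures are close.

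No gene of ER protein folding was called between the cultures under DTT, in either direction, with or without the block. bipA, at the levels given above, had a log2 fold change of 0.32 ± 0.70 (adjusted p = 0.818, edgeR). pdiA stood at 2869 and 3418 CPM on agar and 1933 and 3019 CPM in liquid, a log2 fold change of 0.34 ± 0.62. hacA stood at 475.6 and 392.3 CPM against 402.2 and 356.4 CPM, a log2 fold change of 0.19 ± 0.48. The smallest difference called was 1.74 on the log2 scale in the fit without a block and 1.10 with it, over all genes. Of 5 genes of ER-associated degradation none was called, and derA, a channel component, stood at 181.4 and 82.3 CPM on agar and 62.3 and 76.4 CPM in liquid. sec11, a signal peptidase subunit, stood at 146 and 135 CPM against 62.8 and 63.2 CPM and was called with insert size as a block only (adjusted p = 0.109 and 0.0449).

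In the fit without a block, none of 15 proteasome genes, 6 cytosolic and mitochondrial chaperones, 9 thiol and peroxide defence genes, 10 vesicle transport genes and 10 protein glycosylation genes was called, with medians of 0.31, -0.29, -0.63, 0.13 and 0.38. With insert size as a block 1 chaperone and 1 thiol or peroxide defence gene were called lower and 1 glycosylation gene higher. trr1, the thioredoxin reductase, stood at 3413 and 3002 CPM on agar and 6848 and 3342 CPM in liquid. cwh41, the glucosidase that trims sugar chains of new proteins in the ER, was among the genes lower on agar without DTT that did not stay so. It held 129.7 and 94.8 CPM on agar against 582.4 and 541.5 CPM in liquid without DTT (log2 fold change -2.32, adjusted p = 0.0296, edgeR) and 132.7 and 96.0 CPM against 109.5 and 119.5 CPM with it, where the libraries overlapped. Its change between the conditions did not pass the test (adjusted p = 0.107 with the block).

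Of the other lists, secondary metabolism had 7 of 18 members called higher, against 2.35% of all genes, all of them gli genes, and fmpC called lower, against 0.593%. With insert size as a block 9 were called higher, against 6.87%. In the fit without a block no member was called among genes of sterol synthesis, glycolysis, the tricarboxylic acid cycle, sulfur assimilation, plant wall hydrolases, peptidases, transporters for drugs or oligopeptides, cell division, DNA repair or autophagy, which had medians between -0.98 and 0.77. With the block, 1 gene each was called higher in sterol synthesis, the tricarboxylic acid cycle, plant wall hydrolases, peptidases, cell division and autophagy, and 1 each lower in sterol synthesis, DNA repair and autophagy.

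**Figure D5:**
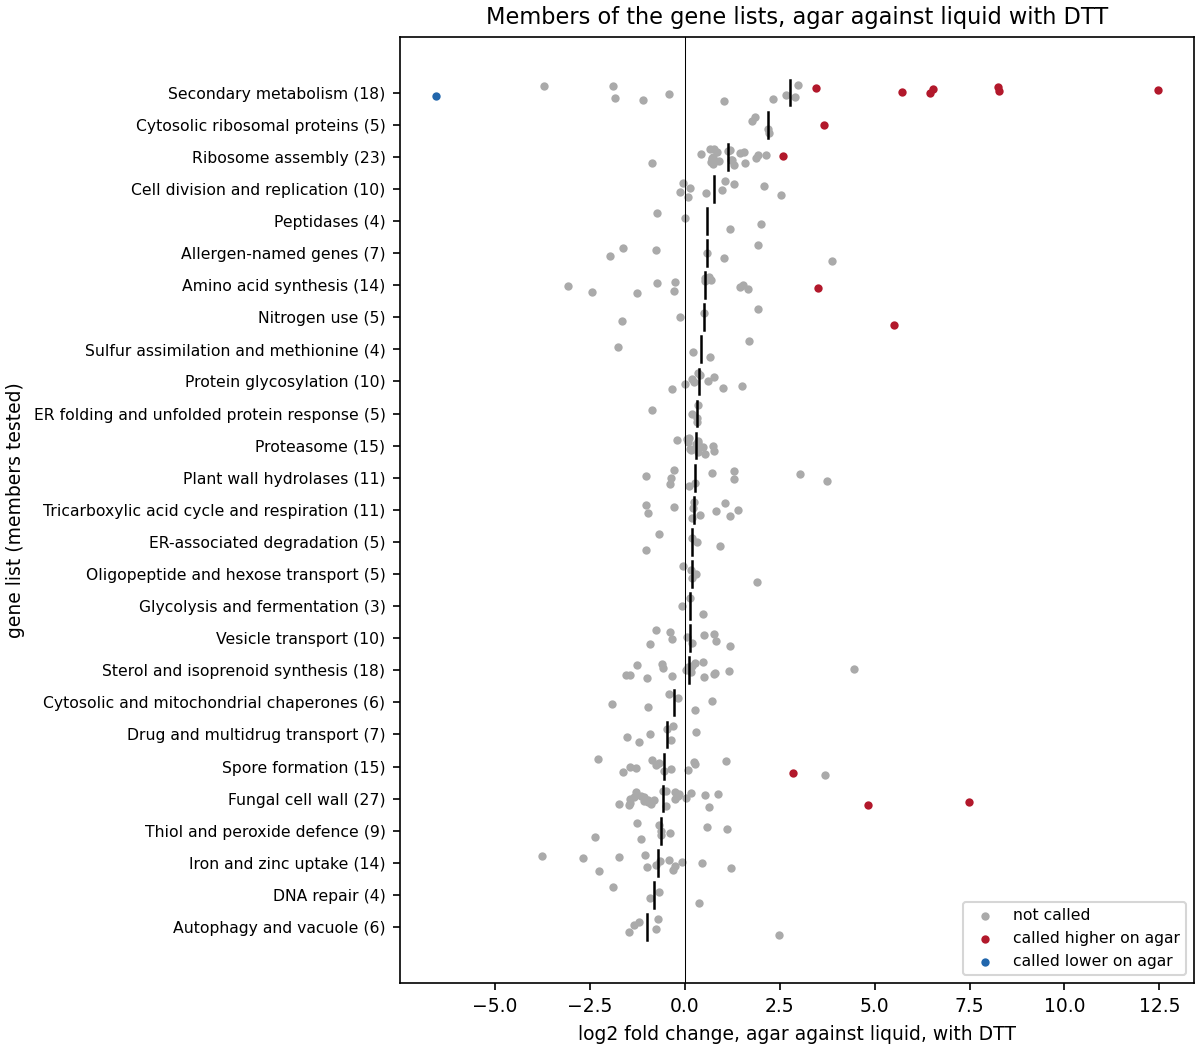
Log2 fold change of agar against liquid culture with DTT for the members of each gene list with at least 3 tested members, with black bars at the list medians and the number tested in parentheses. Called genes (red higher, blue lower) are few in every list but that of secondary metabolism, where the 7 red points are the gli genes.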

How the data were processed

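The deposited tables hold, per the file headers, read counts by gene, not normalized, and the fraction of each gene covered. No aligner, build or rule for multi-mapping reads is given in the sources used. The labels do not mention strand, so a gene and an antisense partner cannot be told apart. Locus tags were matched (11880 of 11880) to a RefSeq table, used for names and gene order; 714 have a symbol. Counts were tested with edgeR 4.0.16 (R 4.3.3) on all 8 libraries with 1 coefficient per condition (4 residual degrees of freedom), after filterByExpr (minimum count 10) and TMM scaling, with Benjamini-Hochberg adjustment over 9438 genes, called under 0.05. The SE is the log2 fold change over the root of F, and CPM are TMM-scaled. The test was tried on simulated data.

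Replicate numbers pair libraries by insert size: differences between replicates correlated between conditions at 0.240 to 0.512. Replicates of a condition differed beyond sampling noise (chi-square over its degrees of freedom, 166 to 246) and were counted separately. Against 0 reads a fold is a bound at a floor of 3 reads over both libraries, and intervals cover counting error only. Named genes were the 10 highest and 10 lowest called with a symbol at 20 CPM or more (only 4 lower ones qualified), 5 and 5 without a symbol, 5 and 5 of highest CPM, some of up to 4 per list, and those called in opposite directions. Genes of the gli row and other rows of neighbours, ags3, ayg1, fmpA, fmpC, gta1, mirB, ppmA, rmt2, rtt106, sidJ, wetA and AO090023000072 fall outside that rule and were named after their values were seen. Genes and lists were chosen with earlier results of these data known. Alternatives were the block, DESeq2 1.42.0, other size factors and filters, only the DTT libraries, no rRNA genes, and each library left out.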

Additional observations from a re-analysis of the deposited data

Results flagged for a closer look

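For 5 named genes, the culture difference with DTT differed from that without DTT when insert size was a block (edgeR, adjusted p under 0.05); without the block none of them passed. For sit1 the log2 fold change of agar against liquid with DTT minus that without was -6.34, and its sign turned. For fmpC it was -11.92 relative to the difference without DTT, a fitted value that rests on a liquid group with no read. For AO090020000542 it was 5.05 and its sign turned. For och3, of the protein glycosylation list, it was 4.30, with 12.7 and 16.7 CPM on agar against 10.2 and 9.19 CPM in liquid with DTT, and 1.55 and 1.48 CPM against 21.9 and 17.3 CPM without. For eaf1, a chromatin protein in Saccharomyces cerevisiae, it was 3.28, with 67.4 and 153.4 CPM against 8.13 and 26.4 CPM with DTT, and 68.3 and 130.9 CPM against 87.6 and 212.7 CPM without.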

How the results depend on the processing

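The 278 genes called with DTT became 992 with insert size as a block, 95 in the 4 DTT libraries alone, 856 there with the block (chosen after seeing the data), 1102 with DESeq2 and 610 without a filter on low counts. The 367 called without DTT became 771, 872 and 569 with the block, DESeq2 and no filter. The 110 called in both became 285, 307 and 186 in the same order, and 73 at a mean CPM of at least 5. The 0 genes whose culture difference changed became 23, 217 and 26. Leaving out 1 library gave 59 to 320, 57 to 444, 34 to 70 and 0 to 7 for these counts. Within each insert size alone, all 278 kept their sign, which follows from the libraries not overlapping at any of them. RLE size factors, omission of rRNA genes, of the gli row (255 and 90 left) or of genes with few reads at high coverage (273 and 108 left; the last pair chosen after seeing the data) kept the counts within 1.5 times. No called gene named in the text changed direction in any setting. Some genes that were not called did. The log2 fold change of cwh41, near 0 in the main fit, was 0.0083 in the 4 DTT libraries alone and 0.0085 without the filter. With 1 library left out it ranged from -0.25 to 0.22. The sign also changed in those fits for sidJ (-1.76 to 0.45) and mirB (-0.25 to 2.64), whose main values were -0.65 and 1.23. The cause was not tested. Counts of reads limit the genes at 0 in liquid: 3 reads correspond to 0.678 and 0.317 CPM in the 2 liquid libraries with DTT, on the TMM scale.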
